A study of Homo sapiens with 4 samples.

Results

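NCI-H209 is a human small cell lung cancer cell line of neuroendocrine type, and the experiment described here is its response to siRNA against TTF-1. One group was NCI-H209 that received control siRNA with no intended target (siNTC) by electroporation, and the other was NCI-H209 that received siRNA against TTF-1 (siTTF-1) in the same way. Each group was read on 1 Affymetrix array, so the line gave 2 of the 4 arrays of the series, and a second small cell line, Lu139, gave the others with the same pair of siRNAs. The electroporation itself was shared by all groups, and no untouched cells were analysed here. The siRNA sequences and the time from electroporation to RNA extraction are not given in the sources used. Every gene was described whose mean over the 2 arrays of NCI-H209 exceeded an intensity of 37.0, taken as the expression limit. This limit, the 40th percentile over all probe sets, left 14632 genes of the 19775 with a value on the arrays. A gene was read from its probe set with the highest mean over the 4 arrays, and a difference is log2(intensity + 18.7) in siTTF-1 cells minus the same in siNTC cells. With 1 array per group there is no replicate, no spread between cultures and no test, and agreement between probe sets of a gene is the sole internal check.

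TTF-1, the product of NKX2-1, is a homeodomain transcription factor that is needed for the formation of the lung, the thyroid and parts of the forebrain. In the adult lung it drives surfactant and secretoglobin genes, and it is a routine diagnostic marker of lung adenocarcinoma and of small cell carcinoma. Small cell carcinoma is a neuroendocrine tumour that carries dense-core granules and neuronal proteins, and lineage transcription factors such as INSM1 maintain that programme.

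The 2 arrays of NCI-H209 were alike in scale, with median probe set intensities of 56.6 and 57.7. Their RNA quality readings were also close: the ratio of 3' to 5' signal was 0.934 and 0.912 for GAPDH and 1.09 and 1.03 for ACTB, in siNTC and siTTF-1 cells. The hybridization controls added to each array were a median 0.11 log2 units higher on the siTTF-1 array (18 probe sets, 0.04 to 0.17). The poly-A controls added to the RNA were a median 0.15 higher (24 probe sets, -0.06 to 0.36). Between the Lu139 arrays the controls differed more. Their median log2 ratio of siTTF-1 to siNTC was -0.78 for hybridization controls and -1.35 for poly-A controls. Lu139 values below are as deposited, and the effect of this offset on them was not tested. Markers of neuroendocrine small cell carcinoma were present, which does not tell NCI-H209 from other lines of that type. INSM1, the neuroendocrine zinc finger factor, was at 9183 in siNTC cells and 7383 in siTTF-1 cells, and the granule protein CHGA was at 3403 and 3814. Epithelial EPCAM was at 12285 and 13124. The vesicle gene SYP was dimmer, at 112 and 102. Of markers of non-neuroendocrine small cell types, YAP1 (12.7 and 14.3) and POU2F3 (8.42 and 9.04) were below the limit on both arrays. REST (80.0 and 85.8) and VIM (61.4 and 66.3), also taken as such markers, exceeded it on both. Of 25 stromal and blood cell markers, 14 exceeded the limit and 0 passed 1.5-fold, with a median difference of 0.07.

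NKX2-1 was lower in siTTF-1 cells on both of its probe sets. On 211024_s_at its intensity was 596 in siNTC cells and 243 in siTTF-1 cells, or 40.7% of control. On 210673_x_at it was 196 and 127, or 64.6% of control. The siTTF-1 array was the lower one each time, but the size differed, with log2 differences of -1.23 and -0.56. In bulk RNA, fewer cells that express a gene and less RNA per cell cannot be told apart, here and in every value that follows. The other genes around NKX2-1 on chromosome arm 14q lay between -0.44 and 0.57. Of 11 such genes above the limit, 0 passed 1.5-fold in either direction. Over all genes 3.52% were lower and 1.09% higher at 1.5-fold, so 0 of 11 is near the share of all genes. SFTA3, the gene next to NKX2-1, was at 396 in siNTC cells and 595 in siTTF-1 cells, a difference of 0.57, so that it was higher where NKX2-1 was lower. MBIP was at 394 and 485 (0.29), and NKX2-8, a homeobox paralog of NKX2-1, was at 59.4 on both arrays. FOXA1, a partner factor of TTF-1 in lung epithelium, was at 384 and 278 (-0.44), with its other expressed probe set at 0.00.

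Over all 14632 genes the differences centred near 0, with a median of 0.01, an SD over genes of 0.27, and 5th and 95th percentiles of -0.50 and 0.35. Genes that passed a fold were mostly lower. At least 2-fold lower were 95 genes, 0.649% of those described, and at least 2-fold higher were 23 genes, or 0.157%. At 1.5-fold there were 515 lower genes (3.52%) and 159 higher genes (1.09%), so 76.4% of the genes past 1.5-fold were lower. When each array was instead scaled to its hybridization controls or its poly-A controls, this share was 90.4% or 92.6%. Those scalings moved the median of all genes to -0.09 or -0.13, and the list medians below are read against the median of all genes. Likewise, counts of list members at 1.5-fold are read against the 3.52% lower and 1.09% higher of all genes. The share of genes at least 1.5-fold lower was 0.922% in the dimmest quintile of genes by mean intensity, 6.08% in the next to brightest and 2.90% in the brightest. By comparison, the same siRNA pair in Lu139 gave 6 of 13996 genes past 2-fold downward (0.0429%) and 1 past 2-fold upward (0.00714%), with an SD over genes of 0.19. The targeted transcript itself was at 780 and 461 there on 211024_s_at (-0.74) and at 400 and 221 on 210673_x_at (-0.80). NCI-H209 gave -1.23 and -0.56 on these probe sets, so which line had the larger decrease depended on the probe set.

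**Figure D1:**
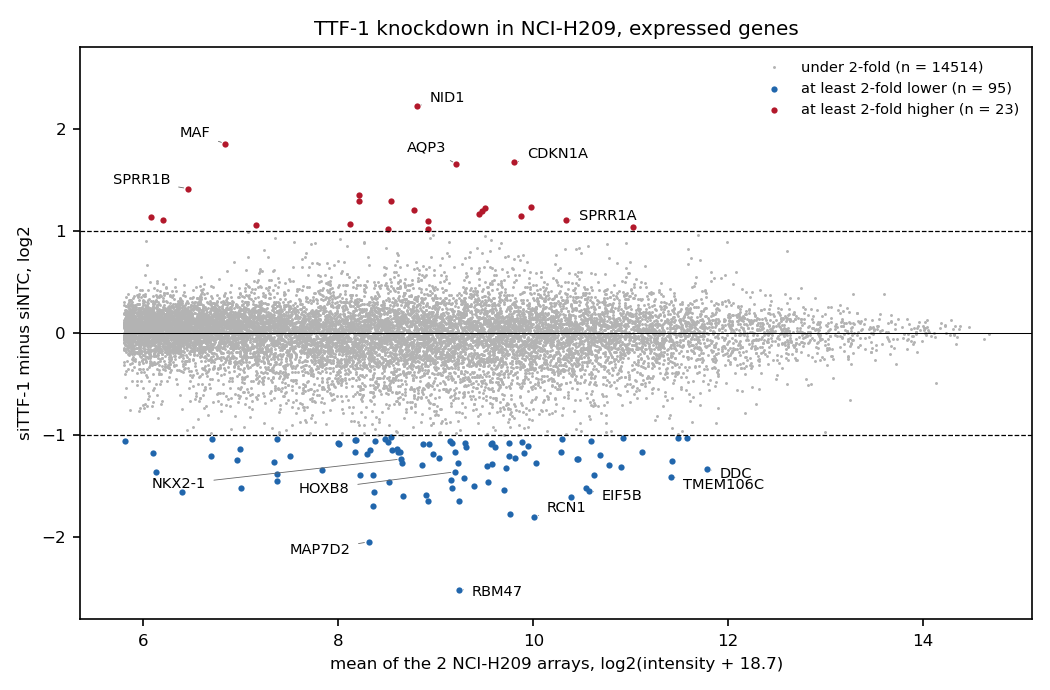
Difference between siTTF-1 and siNTC cells of NCI-H209 (vertical axis, log2) against the mean log2 intensity of the 2 arrays (horizontal axis) for the 14632 expressed genes. Blue points are the 95 genes at least 2-fold lower and red points the 23 at least 2-fold higher; dashed lines mark 2-fold, and most points past them lie below 0.

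Among the lowest genes were regulators of RNA processing and translation. RBM47, an RNA-binding protein of splicing and RNA editing, was at 1426 in siNTC cells and 235 in siTTF-1 cells (-2.51). Its second probe set, 222496_s_at, was at 766 and 226 (-1.68), and its 2 dimmer expressed probe sets gave -0.67 and -0.48, so the siTTF-1 array was lower on each but by unequal amounts. NSRP1, a regulator of splicing in nuclear speckles, was at 842 and 256 (-1.65). ZCRB1, a protein of the minor spliceosome, was at 2495 and 861 (-1.51), with -1.45 on its other expressed probe set. EIF5B, the GTPase that joins the ribosomal subunits at initiation, was at 2589 and 873 (-1.55), and its 6 expressed probe sets lay between -1.60 and -1.19. EIF4EBP2, an inhibitor of cap-dependent translation, was at 2149 and 901 (-1.24). The siTTF-1 array was thus the lower one on every expressed probe set of RBM47, ZCRB1, EIF5B and EIF4EBP2. Of the 63 expressed members of a splicing list, 6 were at least 1.5-fold lower (9.52%, against 3.52% of all genes) and 1 was higher. The others beside RBM47 and NSRP1 were MBNL3 (784 and 325, -1.22), MSI2 (1917 and 1033, -0.88), CLK4 (-0.65) and PTBP2 (-0.60). MBNL3 gave -0.72 and 0.01 on its other expressed probe sets. MSI2 had 8 expressed probe sets that reached from -0.88 to 0.40. The higher member was RBM24, a muscle and heart splicing regulator, at 579 and 1084 (0.88).

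A further set of low genes concerned microtubules and neuronal shape. MAP7D2, a microtubule-binding partner of kinesin, was at 626 in siNTC cells and 138 in siTTF-1 cells (-2.04). MAP9, which binds spindle and ciliary microtubules, was at 684 and 214 (-1.59), and its 4 expressed probe sets ranged from -2.29 to -1.50. VASH2, a tubulin carboxypeptidase, was at 198 and 57.0 (-1.51). These genes were therefore lower in siTTF-1 cells on each expressed probe set. MAP1B, a microtubule-associated protein of growing axons, was at 1431 and 655 (-1.11), and the neuronal intermediate filament gene INA was at 4351 and 2122 (-1.03). MAP2 was at 3226 and 2095 (-0.62) and the neuronal RNA-binding gene ELAVL2 at 287 and 176 (-0.65). In the list of neuronal cytoskeleton genes, 6 of 32 expressed members were at least 1.5-fold lower (18.8%) and 0 higher, with a median of -0.12. Outside those 6 the list held 14 further members below 0 and 12 above 0. Of 27 expressed neural adhesion genes, 2 were at least 1.5-fold lower (7.41%, against 3.52% of all genes), namely the neuroligin gene NLGN4X (955 and 322, -1.51) and NTM (144 and 74.0, -0.81). The receptor and ligand genes of axon guidance had 0 of 29 past 1.5-fold.

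Some of the lowest genes encode proteins of membrane traffic and the endoplasmic reticulum, picked here after their values were seen. Of 31 expressed genes of endoplasmic reticulum calcium 2 were at least 1.5-fold lower (6.45%, against 3.52% of all genes) and 0 higher, with a median of 0.04. Of 50 expressed genes of Rab traffic 2 were lower (4%) and 4 higher (8%, against 1.09% of all genes), with a median of 0.06. RCN1, a calcium-binding protein of the secretory pathway lumen, was at 1903 in siNTC cells and 534 in siTTF-1 cells (-1.80). TMTC4, an O-mannosyltransferase of the endoplasmic reticulum, was at 1587 and 451 (-1.77), with its other expressed probe sets at -1.31 and -0.97. TMEM38B, a cation channel of the same membrane, was at 1352 and 570 (-1.22). RPN2, a subunit of the oligosaccharyltransferase, was at 4225 and 1766 (-1.25), and its 3 probe sets agreed closely, between -1.30 and -1.25. Each of these genes was lower on the siTTF-1 array. CHML, an escort protein for newly made Rab GTPases, was at 1049 and 323 (-1.65), with its other expressed probe sets at -1.41 and -0.34. RABEP1, an effector of early endosome fusion, was at 2536 and 957 (-1.39), with 5 expressed probe sets from -1.39 to -0.39. OPTN, an autophagy receptor, was at 812 and 258 (-1.59), with -1.68 on its other probe set. The golgin GOLGA4 was at 1109 and 380 (-1.50), but its second expressed probe set gave -0.12. AP3M2, a subunit of the neuronal AP-3 adaptor, was at 921 and 328 (-1.44).

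Channels and receptors formed a further group. TRPA1, a cation channel opened by irritants, was at 571 in siNTC cells and 163 in siTTF-1 cells (-1.70). TRPM8, the cold-activated channel, was at 1848 and 816 (-1.16) on 1 probe set, while its other expressed probe set gave 0.07. TCAF1, which binds and regulates TRPM8, was at 1005 and 364 (-1.42), and its 5 expressed probe sets lay between -1.42 and -0.77. On the probe sets used, both channel genes and the channel-binding gene were lower in siTTF-1 cells. TRPM8 was split between its probe sets, and TRPA1 was read by 1 expressed probe set. The sodium channel gene SCN3A was at 3568 and 2001 (-0.83), the potassium channel gene KCND2 at 103 and 44.4 (-0.94) and the leak channel gene KCNK3 at 706 and 432 (-0.69). In the ion channel list 5 of 60 expressed members were at least 1.5-fold lower (8.33%, against 3.52% of all genes) and 0 higher, with a median of 0.00. CNR1, the cannabinoid receptor of neurons, was at 255 and 81.8 (-1.45), and its other expressed probe set gave -0.23. ERBB4, a receptor tyrosine kinase for neuregulins, was at 83.9 and 26.8 (-1.17), so that its siTTF-1 level lay below the expression limit. INSR, the insulin receptor, was at 1306 and 771 (-0.75) with 5 expressed probe sets from -0.75 to -0.44. FGFR3 was higher, at 155 and 260 (0.68). Of 40 expressed genes of receptor tyrosine kinase signalling, 3 were at least 1.5-fold lower (7.5%) and 1 higher (2.5%, against 1.09% of all genes).

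**Figure D2:**
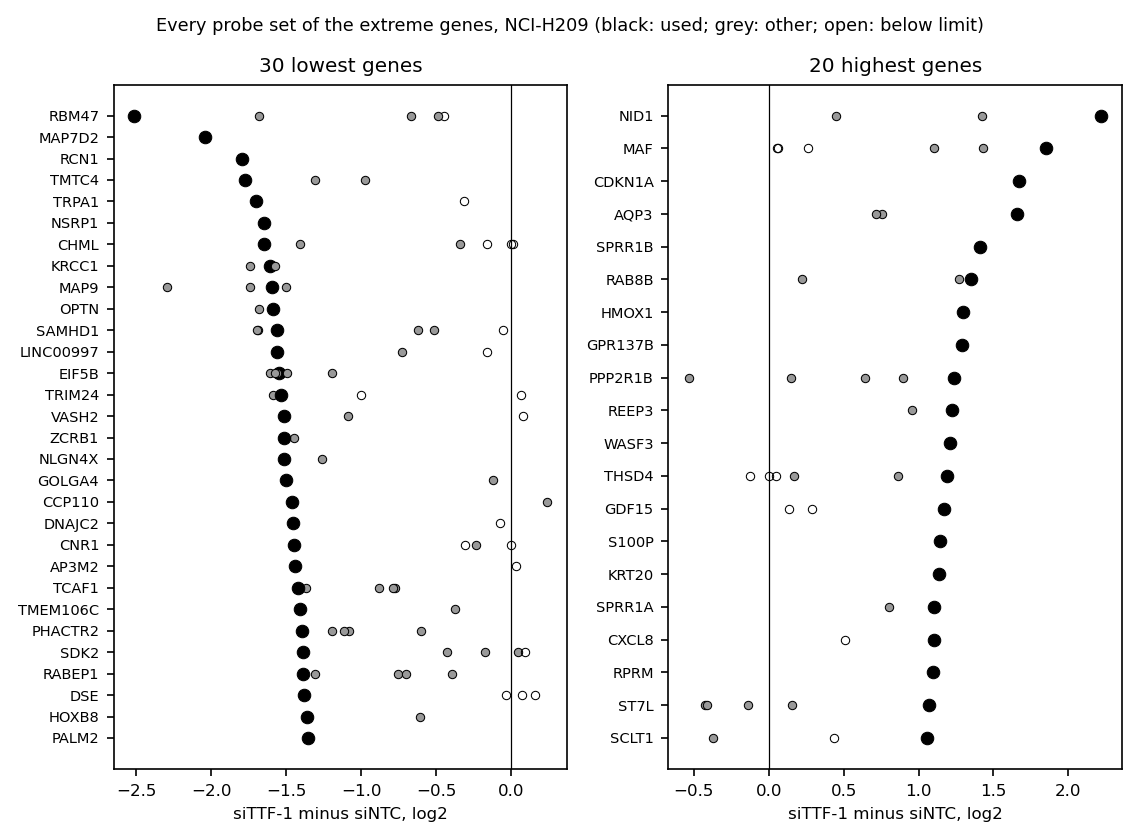
Difference between siTTF-1 and siNTC cells of NCI-H209 (horizontal axis, log2) on every probe set of the 30 lowest (left) and the 20 highest genes (right). Large black points are the probe sets used, grey points other expressed probe sets and open points probe sets below the expression limit; the probe sets of EIF5B lie between -1.60 and -1.19, whereas those of RBM47 spread from -2.51 to -0.48 and those of CCP110, PPP2R1B and ST7L cross 0.

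The highest gene in siTTF-1 cells was NID1, the basement membrane glycoprotein nidogen-1, at 189 in siNTC cells and 949 in siTTF-1 cells (2.22). Its other expressed probe sets were at 63.5 and 202 (1.43) and at 46.0 and 69.4 (0.45), all higher on the siTTF-1 array. MAF, a basic leucine zipper transcription factor, was at 41.6 and 199 (1.85), 45.2 and 119 (1.10) and 15.2 and 72.9 (1.43) on its 3 expressed probe sets. The last of these was below the expression limit in siNTC cells and counted as expressed through its siTTF-1 value alone, so it is a weaker check. Other probe sets of MAF were below the limit on both arrays. CDKN1A, the cell cycle inhibitor p21, was at 483 and 1580 (1.67). RPRM, which is known as a mediator of arrest in G2, was at 313 and 692 (1.10), and GDF15, a stress-induced cytokine, was at 447 and 1027 (1.17). CDKN1A, RPRM and GDF15 were each read by 1 expressed probe set. In a list of CDK inhibitors and genes known as p53 targets, 39 members were expressed, with a median of 0.06. CDKN1A and GDF15 were the members at least 1.5-fold higher, while RRM2B (1254 and 788, -0.66) and the p53 inhibitor MDM4 (1131 and 733, -0.61) were at least 1.5-fold lower.

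Several of the other high genes are known from surface and stratified epithelia and were grouped after their values were seen. AQP3, a water and glycerol channel, was at 315 in siNTC cells and 1034 in siTTF-1 cells (1.66), with 0.71 as the lowest of its 3 expressed probe sets. SPRR1A, a precursor of the cornified envelope, was at 864 and 1879 (1.10), and its second probe set gave 0.80. SPRR1B was at 35.1 and 125 (1.41), and SPRR3 was at 29.0 and 70.6 (0.90), so both were below the limit of 37.0 in siNTC cells and above it in siTTF-1 cells. Of the 23 genes at least 2-fold higher, SPRR1B, KRT20 and CXCL8 were so. The remaining expressed members, SPRR2B (0.45), SPRR2G (0.24) and SPRR4 (0.03), had smaller values. This family, like the others below, was taken up after its values were seen, and because SPRR1B and SPRR3 passed the limit through the siTTF-1 array alone, no median is given for it. S100P, a small calcium-binding protein of mucosal epithelia, was at 614 and 1377 (1.14). S100A11 was at 627 and 1066 (0.75) and S100A14 at 88.1 and 145 (0.62). These 3 of 13 expressed S100 genes were at least 1.5-fold higher (23.1%, against 1.09% of all genes). KRT20, a keratin of intestinal and Merkel cells, was at 27.0 and 81.8 (1.14), but of 23 expressed keratin genes KRT20 alone passed 1.5-fold. ZNF750, a transcription factor of epidermal differentiation, was at 238 and 501 (1.02). The tight junction gene CLDN4 was at 907 and 1554 (0.76) on 1 probe set and at 0.08 on the other. In a list of epithelial junction genes 1 of 39 expressed members was at least 1.5-fold higher, CLDN4, and 1 was lower, RBM47, which that list also held. CDH1 was at 8180 and 8825 (0.11).

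Lists of stress response genes were examined next. HMOX1, heme oxygenase 1, was at 171 in siNTC cells and 447 in siTTF-1 cells (1.29), and NQO1, a quinone reductase, was at 1261 and 2320 (0.87). The list of NRF2 and aldo-keto reductase genes had 40 expressed members. HMOX1, NQO1 and IDH1 (3499 and 5297, 0.60) were the 3 at least 1.5-fold higher (7.5%, against 1.09% of all genes). Of the 40, 30 were above 0, where 7473 of all 14632 genes were. Their median was 0.14, against 0.01 over all genes. Scaled to the poly-A controls it was -0.0085, against -0.13 over all genes. The transcript of NRF2 itself, NFE2L2, was at 2846 and 3231 (0.18). Of 61 expressed genes of the ATF4 and unfolded protein responses, 7 were at least 1.5-fold higher (11.5%, against 1.09% of all genes) and 1 was lower. Of the 61, 47 were above 0, where 7473 of all 14632 genes were. Their median was 0.13, against 0.01 over all genes. Scaled to the poly-A controls it was -0.014, against -0.13 over all genes. Both chains of the large neutral amino acid transporter were among the 7 higher members: SLC3A2 was at 2961 and 5508 (0.89) and SLC7A5 at 4689 and 8220 (0.81). The chaperone cofactor DNAJB9 was at 710 and 1219 (0.76) and the stress sensor ERN1 at 269 and 430 (0.64), while the chaperone HSPA5 was at 4997 and 5098 (0.03). The lower member was EDEM1, at 174 and 101 (-0.69). Among immediate early genes, 4 of 42 expressed members were at least 1.5-fold higher (9.52%, against 1.09% of all genes). They were FOS at 75.6 and 124 (0.60), PHLDA1 at 251 and 461 (0.83), SGK1 at 285 and 462 (0.66) and MAF. NAB1, a co-repressor of EGR factors, was lower, at 1599 and 653 (-1.27).

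The promoters of the high genes were searched for 8 short motifs in the 250 bases before the start site, as RefSeq gives them on GRCh38.p14. An AP-1 element was searched as TGACTCA on both strands. It is the site of FOS and JUN dimers. It was present in 14 of 133 promoters of genes at least 1.5-fold higher (10.5%) and in 5 of 423 of genes at least 1.5-fold lower (1.18%). It stood in 314 of the 11707 promoters matched to expressed genes (2.68%) and in 4.16% of all 27305 promoters in the table. Of the 20 promoters of genes at least 2-fold higher, 4 held it (20%). Of these 4 genes CXCL8 and SPRR1B were below the expression limit in siNTC cells. Over genes above the limit on both arrays, a restriction added after seeing the data, the element stood in 2 of 17 promoters of genes at least 2-fold higher (11.8%), in 11 of 128 of genes at least 1.5-fold higher (8.59%) and in 2.60% of 11515 in all. The 4 promoters are shown because they carry the first count, with the element in capitals and the other bases in lower case, 5' to 3' on the strand of the gene. They are CXCL8 (chr4:73740319-73740568, plus strand), GPNMB (chr7:23246525-23246774, plus strand), SPRR1A (chr1:152983831-152984080, plus strand) and SPRR1B (chr1:153030953-153031202, plus strand).
CXCL8: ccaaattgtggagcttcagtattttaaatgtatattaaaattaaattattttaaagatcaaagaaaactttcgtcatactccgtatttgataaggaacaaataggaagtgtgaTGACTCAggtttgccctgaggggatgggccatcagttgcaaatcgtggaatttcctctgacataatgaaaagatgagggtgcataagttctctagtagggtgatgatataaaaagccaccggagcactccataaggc
GPNMB: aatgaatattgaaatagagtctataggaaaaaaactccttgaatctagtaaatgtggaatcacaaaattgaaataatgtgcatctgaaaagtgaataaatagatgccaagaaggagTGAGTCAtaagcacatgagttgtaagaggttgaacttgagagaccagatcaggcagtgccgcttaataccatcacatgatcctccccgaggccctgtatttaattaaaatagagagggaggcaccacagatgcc
SPRR1A: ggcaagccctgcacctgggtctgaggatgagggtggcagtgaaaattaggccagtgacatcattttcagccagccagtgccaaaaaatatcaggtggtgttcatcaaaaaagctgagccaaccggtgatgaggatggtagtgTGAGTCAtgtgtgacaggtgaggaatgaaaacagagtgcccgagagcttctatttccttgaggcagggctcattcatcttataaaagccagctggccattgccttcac
SPRR1B: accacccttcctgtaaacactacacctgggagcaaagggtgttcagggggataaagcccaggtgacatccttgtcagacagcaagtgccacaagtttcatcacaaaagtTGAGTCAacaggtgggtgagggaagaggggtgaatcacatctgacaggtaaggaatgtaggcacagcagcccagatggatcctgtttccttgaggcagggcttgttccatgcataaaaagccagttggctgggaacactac
The element starts 137 bases before the start site in CXCL8, 134 in GPNMB, 108 in SPRR1A and 141 in SPRR1B. CXCL8, the chemokine interleukin-8, was at 31.4 in siNTC cells and 88.9 in siTTF-1 cells (1.10), and GPNMB, a glycoprotein of melanosomes and lysosomes, was at 322 and 670 (1.02). The values of SPRR1A and SPRR1B are given above. Others of the 14 promoters belonged to SPRR3, SLC3A2, DDIT3 and CLDN4. Transcripts of the AP-1 subunits were mostly near 0: JUN was at 5095 and 4881 (-0.06), JUND at 3554 and 3522 (-0.01), FOSL2 at 239 and 234 (-0.03) and JUNB at 98.4 and 123 (0.27), beside FOS at 0.60. A TATA box, searched as TATAAA on both strands, stood in 6 of those 20 promoters (30%), against 6.24% of the promoters of expressed genes. They were those of AQP3, CXCL8, GDF15, MAF, S100P and SPRR1A. It stood in 5 of the 17 of genes above the limit on both arrays. At 1.5-fold the share was smaller, with 12 of 133 promoters of higher genes (9.02%) and 26 of 423 of lower genes (6.15%). Of promoters of genes at least 2-fold lower, 7 of 80 held it (8.75%). Such a match is a description of the letters and not a site of binding or a cause.

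A core element that TTF-1 binds was searched as CACTTGA on both strands. It stood in 2 of 80 promoters of genes at least 2-fold lower (2.5%), in 7 of 423 of genes at least 1.5-fold lower (1.65%), in 2 of 133 of genes at least 1.5-fold higher (1.5%) and in 1.48% of those of expressed genes. The share among lower genes was thus close to that among all expressed genes in this window, which says nothing about more distant elements. The 2 promoters are shown with the element in capitals, as the genes of the lowest set that hold it. They are NKAP (chrX:119943752-119944001, minus strand) and PHACTR2 (chr6:143607930-143608179, plus strand).
NKAP: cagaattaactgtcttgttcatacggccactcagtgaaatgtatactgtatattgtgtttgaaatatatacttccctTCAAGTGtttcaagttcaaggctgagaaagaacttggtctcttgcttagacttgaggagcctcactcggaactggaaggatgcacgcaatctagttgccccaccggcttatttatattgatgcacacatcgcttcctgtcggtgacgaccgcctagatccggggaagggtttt
PHACTR2: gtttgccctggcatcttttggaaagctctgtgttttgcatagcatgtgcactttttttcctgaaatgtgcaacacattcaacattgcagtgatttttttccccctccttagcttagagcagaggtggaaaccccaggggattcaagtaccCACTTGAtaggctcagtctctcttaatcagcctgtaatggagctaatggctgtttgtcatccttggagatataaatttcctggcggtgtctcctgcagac
The element starts 173 bases before the start site in NKAP and 100 in PHACTR2. NKAP, a nuclear protein of RNA processing and transcriptional repression, was at 508 in siNTC cells and 233 in siTTF-1 cells (-1.07). PHACTR2, a regulator of phosphatase and actin, was at 512 and 183 (-1.39), with 5 expressed probe sets from -1.39 to -0.60. Promoters of genes at least 2-fold lower had a median GC content of 66.8% and those of genes at least 2-fold higher 58.4%, against 64.4% over expressed genes.

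The HOXB cluster, whose homeobox factors pattern the body axis, was lower for most of its genes. HOXB8 was at 921 in siNTC cells and 348 in siTTF-1 cells (-1.36), and HOXB6 was at 454 and 189 (-1.19). HOXB4 was at 484 and 251 (-0.90), and HOXB7 was at 1081 and 643 (-0.73), with its 3 probe sets between -0.73 and -0.68. HOXB5 was at 950 and 640 (-0.55) and HOXB2 at 2759 and 2033 (-0.44). The siTTF-1 array was the lower one for each of these 6 genes. HOXB3 (-0.24) and HOXB9 (-0.07) were closer to 0 and HOXB1 was at 0.07. Thus 8 of 9 expressed HOXB genes were below 0, where 47.3% of all genes were. Of the 9, 4 were at least 1.5-fold lower (44.4%, against 3.52% of all genes), and their median as a family was -0.55. The antisense transcript HOXB-AS3 of the same cluster was at 158 and 95.8 (-0.63). The HOXD genes had a median of -0.15 with 0 of 7 past 1.5-fold, and the HOXC genes a median of -0.03 with HOXC9 (123 and 68.9, -0.70) as the 1 of 6 past it. Probe sets of neighbouring HOX genes can share sequence, which was not examined.

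Centrosome genes were taken up as a family. Of 34 expressed genes named CEP, 6 were at least 1.5-fold lower (17.6%, against 3.52% of all genes) and 26 were below 0, where 47.3% of all genes were, with a median of -0.27. CEP135, needed for centriole assembly, was at 357 in siNTC cells and 158 in siTTF-1 cells (-1.09). CEP57 was at 1090 and 506 (-1.08), with 5 probe sets between -1.25 and -0.77, and CEP128 was at 718 and 357 (-0.97). CEP290, a gatekeeper of the ciliary base, was at 393 and 214 (-0.82). CEP135, CEP57, CEP128 and CEP290 were lower in siTTF-1 cells on each expressed probe set. CCP110, which caps centrioles, was at 1209 and 428 (-1.46) on the probe set used but at 0.24 on the other. Of 16 expressed genes of intraflagellar transport, 1 passed 1.5-fold, IFT46 (701 and 455, -0.60), and 14 were below 0, with a median of -0.23.

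**Figure D3:**
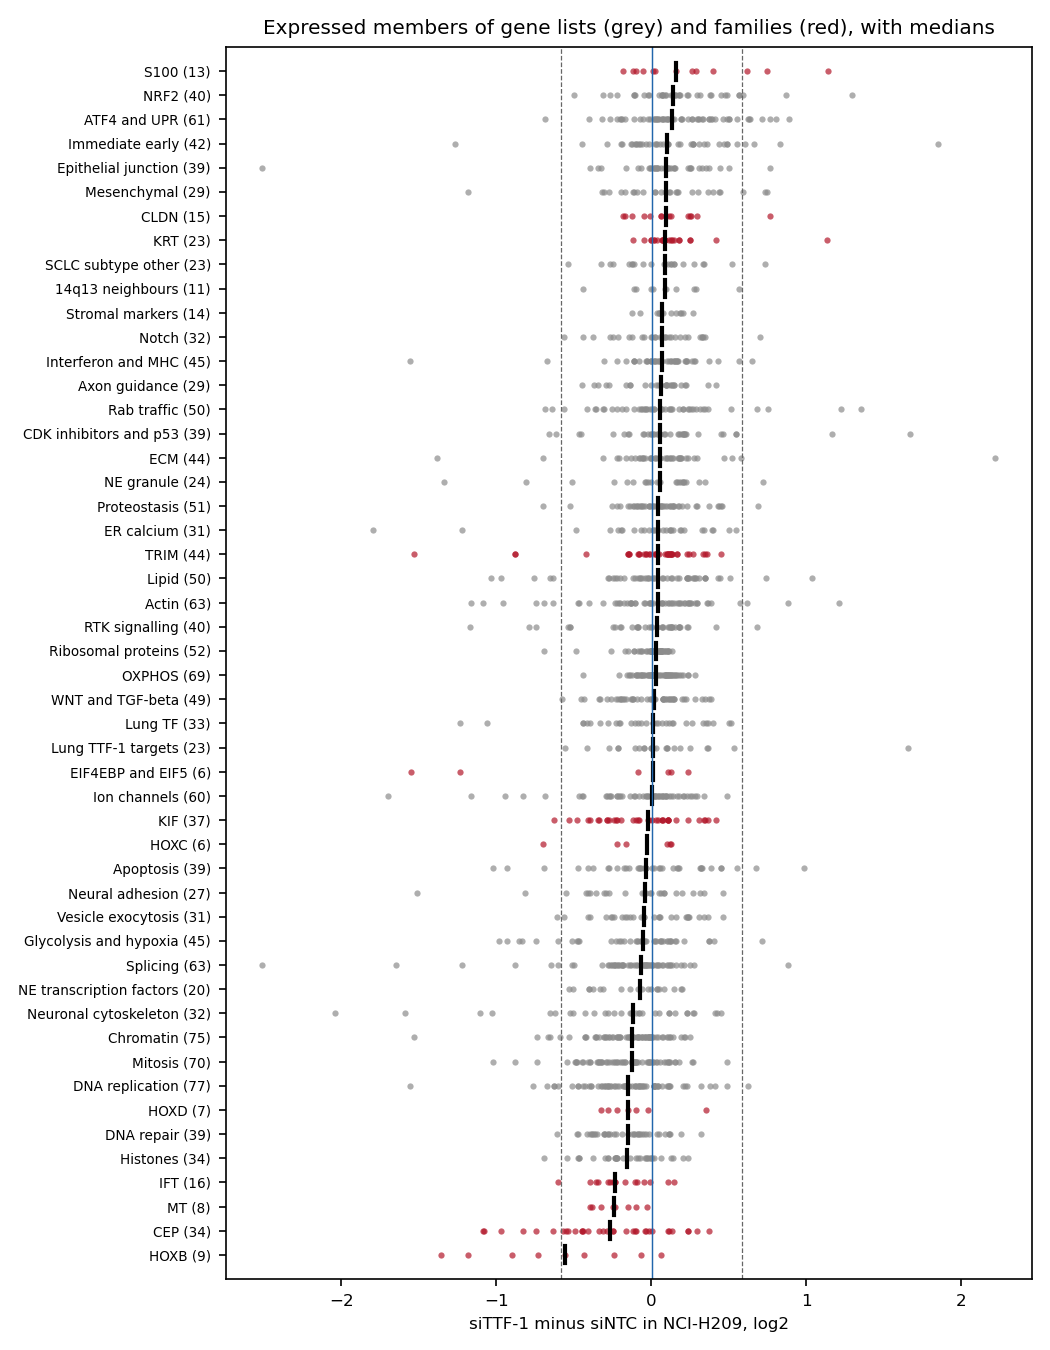
Differences between siTTF-1 and siNTC cells of NCI-H209 (horizontal axis, log2) for the expressed members (points) of each gene list (grey) and gene family (red) with at least 6 expressed members, whose number stands in brackets. Black bars are medians, the blue line is the median of all genes at 0.01 and dashed lines mark 1.5-fold; the HOXB family, chosen after its values were seen, has the lowest median at -0.55. The SPRR family is not drawn.

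Long genes were more often lower. Gene length, from the start to the end of the RefSeq gene model, was matched for 14613 genes, which were then divided into quintiles. The median length rose over the quintiles from 3.98 kb through 12.6, 26.7 and 54.0 kb to 151 kb. The share of genes at least 1.5-fold lower was 1.33%, 2.05%, 3.08%, 4.35% and 6.74% in the same order. The share at least 1.5-fold higher had no such order, at 1.06%, 1.03%, 0.889%, 1.27% and 1.20%. Genes at least 2-fold lower had a median length of 66.3 kb, those at least 2-fold higher 28.3 kb and all matched genes 26.7 kb. The order was also examined within terciles of intensity. From the shortest to the longest quintile, the share lower went from 0.717% to 3.75% in the dimmest tercile, from 2.85% to 9.01% in the middle one and from 1.01% to 6.58% in the brightest. In Lu139, where fewer genes passed, the share lower went from 0.234% in the shortest to 1.75% in the longest quintile.

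**Figure D4:**
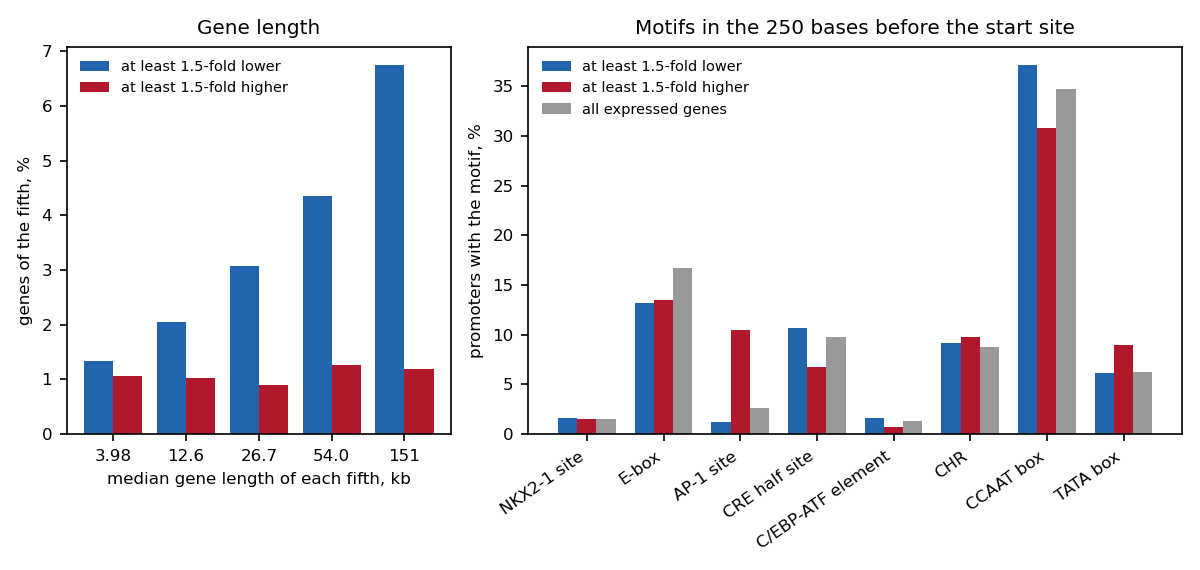
Left, share of genes at least 1.5-fold lower (blue) or higher (red) after siTTF-1 in NCI-H209 in each quintile of gene length, labelled with its median length in kb. Right, share of promoters that hold each of 8 motifs among lower, higher and all expressed genes; the blue bars climb from 1.33% to 6.74% with length, and the AP-1 motif reaches 10.5% among higher genes against 2.68% overall.

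Of 20 expressed neuroendocrine transcription factors 0 passed 1.5-fold. SOX2, a stem cell factor that small cell carcinoma often amplifies, was at 1233 in siNTC cells and 846 in siTTF-1 cells (-0.53), and GFI1, a zinc finger repressor, was at 347 and 239 (-0.51). ISL1 was at 3124 and 3568 (0.19) and PROX1 at 2581 and 2342 (-0.14). Among 24 expressed granule and hormone genes, 2 were at least 1.5-fold lower (8.33%, against 3.52% of all genes) and 1 higher (4.17%, against 1.09%). DDC, the decarboxylase that makes dopamine and serotonin, was at 5574 and 2197 (-1.34) and at 910 and 402 (-1.14) on its second probe set. SCG2, the granule protein secretogranin II, was at 3555 and 2027 (-0.81). CALCA, the calcitonin gene, was at 707 and 1175 (0.72), with 4 expressed probe sets from 0.50 to 0.84. The siTTF-1 array was lower for DDC and SCG2 and higher for CALCA. The bombesin-like peptide gene GRP was at 8585 and 6009 (-0.51), CHGB at 1564 and 1815 (0.21) and UCHL1 at 12240 and 13846 (0.18). Of 31 expressed exocytosis genes 1 passed, CADPS2, a factor of dense-core vesicle release (2322 and 1516, -0.61).

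Of 33 expressed lung transcription factors, NKX2-1 and NFIB were at least 1.5-fold lower (6.06%, against 3.52% of all genes) and 0 were higher. NFIB, a factor of lung maturation that mouse small cell tumours amplify, was at 799 in siNTC cells and 374 in siTTF-1 cells (-1.06), with 6 expressed probe sets from -1.29 to -0.40. FOXA2 was at 1178 and 934 (-0.33) and ID3, an inhibitor of helix-loop-helix factors, at 985 and 1418 (0.52). Of 23 expressed genes known as TTF-1 targets in lung epithelium, AQP3 alone passed 1.5-fold, upward (4.35%, against 1.09% of all genes). LMO3, a LIM-domain cofactor, was at 232 and 151 (-0.56), and HSD17B6, a steroid dehydrogenase, was at 229 and 167 (-0.42). SFTPB, a surfactant protein gene, was at 131 and 132 (0.01), its fellow SFTPC at 267 and 288 (0.10) and the protease gene NAPSA at 63.4 and 65.2 (0.03), so these were nearly level. LAMP3 was at 814 and 699 (-0.21), MUC1 at 561 and 819 (0.53), and SCGB3A2 was below the limit on both arrays.

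Of 70 expressed mitosis genes 3 were at least 1.5-fold lower (4.29%), a share near the 3.52% of all genes, and 0 were higher. Their median was -0.12, and 52 were below 0, where 47.3% of all genes were. These were the survivin gene BIRC5 (4077 and 1997, -1.02), the condensin gene SMC4 (5070 and 2745, -0.88) and HMMR (4891 and 2933, -0.73). Of 77 expressed genes of DNA replication and the G1/S transition, 6 were at least 1.5-fold lower (7.79%). SAMHD1, which degrades deoxynucleotides, was the lowest of them, at 548 and 174 (-1.56), with 5 expressed probe sets from -1.69 to -0.51. The checkpoint mediator CLSPN was at 651 and 376 (-0.77) and E2F8 at 527 and 323 (-0.67), while the cyclin gene CCNE1 was at 366 and 576 (0.63) with -0.19 on its other expressed probe set. DNA repair genes had 31 of 39 below 0 and 1 past 1.5-fold, RAD50 (587 and 379, -0.61). Chromatin regulators had 59 of 75 below 0 and a median of -0.12, and 5 were at least 1.5-fold lower (6.67%). These were the co-regulator TRIM24 (1392 and 468, -1.53), the remodelling subunit SMARCC1 (1620 and 965, -0.74), the deacetylase HDAC2 (3916 and 2457, -0.67), the demethylating enzyme TET1 (181 and 108, -0.65) and the acetyltransferase KAT2B (226 and 144, -0.59). The medians of the replication and the repair list were both -0.15.

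In metabolism, the list of glycolysis and hypoxia genes had 6 of 45 expressed members at least 1.5-fold lower (13.3%) and 1 higher. PDK1, which inhibits pyruvate dehydrogenase, was at 718 in siNTC cells and 355 in siTTF-1 cells (-0.98), and BNIP3, a mitophagy receptor, was at 3786 and 1977 (-0.93). The collagen lysyl hydroxylase PLOD2 was at 700 and 378 (-0.86) and the oxygen sensor EGLN1 at 1173 and 650 (-0.83). PDK3 (-0.74) and EGLN3 (-0.60) were the others. The higher member was DDIT4, an inhibitor of mTORC1, at 2601 and 4290 (0.72). The hypoxia factor gene HIF1A was at 5436 and 4647 (-0.23) and its target VEGFA at 1821 and 2027 (0.15), and the list's median was -0.06. Oxidative phosphorylation genes had 0 of 69 past 1.5-fold, and their values lay between -0.44 and 0.28.

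Actin regulators contained members in both directions. Of 63 expressed, 6 were at least 1.5-fold lower (9.52%) and 3 higher (4.76%). ROCK1, a kinase of actomyosin contraction, was at 3313 in siNTC cells and 1469 in siTTF-1 cells (-1.16), although its 4 expressed probe sets reached from -1.22 to 0.17. ENAH, which elongates filaments, was at 4078 and 2092 (-0.96), and the focal adhesion gene VCL was at 1109 and 653 (-0.75). WASF3, an activator of branched actin, was at 270 and 648 (1.21). MSN, the membrane linker moesin, was at 1436 and 2662 (0.88). Matrix and mesenchymal genes were also split: FN1, fibronectin, was at 737 and 314 (-1.18), whereas LGALS3, galectin-3, was at 2425 and 4042 (0.73). VIM was at 61.4 and 66.3 (0.09). The endothelial ligands gave opposite values, with ANGPT2 at 338 and 661 (0.93, 4 probe sets from 0.87 to 1.06) and ANGPT1 at 407 and 262 (-0.60).

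Probe sets of the same gene were set against each other. Of the 14632 genes, 7256 had at least 2 expressed probe sets, and in 56.9% of these all gave the same direction. Among genes at least 2-fold lower, 68 had at least 2 expressed probe sets, and 61 of them (89.7%) had all in the same direction. Among genes at least 2-fold higher 8 of 11 did. All expressed probe sets were at least 1.5-fold lower for 100 genes (1.38% of the 7256) and at least 1.5-fold higher for 20 (0.276%). The remaining 27 of the 95 lower genes and 12 of the 23 higher genes were read by 1 expressed probe set and had no such check. Some genes split between their probe sets. RBM47, NID1 and PPP2R1B were among the genes with the widest ranges. PPP2R1B, a scaffold of protein phosphatase 2A, was at 637 and 1523 (1.23) on the probe set used, with others down to -0.53. ST7L (174 and 385, 1.07) and SCLT1 (79.9 and 187, 1.06) also had probe sets below 0, at -0.43 and -0.37. PHF20L1, a chromatin reader, was at 1150 and 1024 (-0.16) on the probe set used, yet at 184 and 492 (1.33) and 281 and 622 (1.09) on 2 others.

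The large values of NCI-H209 were set beside those of Lu139, whose control and siTTF-1 arrays are separate. As given above, the spiked-in controls differed more between the Lu139 arrays than between those of NCI-H209. Of the 95 genes at least 2-fold lower in NCI-H209, 85 exceeded the expression limit in Lu139 and 82 of these were below 0 there, with a median of -0.48, where 40.7% of all genes expressed in Lu139 were below 0. Of the 85, 29 passed 1.5-fold downward in Lu139 (0.936% of all its genes did) and 3 passed 2-fold, and 0 had the larger decrease in Lu139. Because these genes were chosen by their large values in NCI-H209, that choice itself favours smaller values in Lu139. The last count therefore says nothing about the lines. Of the 23 genes at least 2-fold higher, 16 exceeded the limit in Lu139 and 13 of these were above 0. The median of the 16 was 0.37, against 0.03 over all genes expressed in Lu139. Several genes had no comparable value there. RBM47 was at 15.9 and 13.9 in Lu139, NID1 at 8.60 and 7.54, SPRR1A at 12.5 and 15.9, S100P at 28.8 and 30.8 and HOXB8 at 29.2 and 23.8, all below the limit. DDC and MAF exceeded the limit in Lu139 but were level there on the probe set used. DDC was at 6280 on both arrays of Lu139 (0.00), against -1.34 in NCI-H209. MAF was at 40.8 and 40.6 (0.00), against 1.85, but these Lu139 values lay close to the limit and say little about a response. On 206363_at MAF was at 39.2 and 50.6 in Lu139 (0.26), against 1.10 in NCI-H209. GPR137B, a lysosomal membrane protein, was at 219 and 563 in NCI-H209 (1.29) and at 288 and 259 in Lu139 (-0.14). GRP was at 8585 and 6009 (-0.51) in NCI-H209 and at a difference of 0.40 in Lu139. With 1 array per group, whether any of these genes differed between the lines was not tested.

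**Figure D5:**
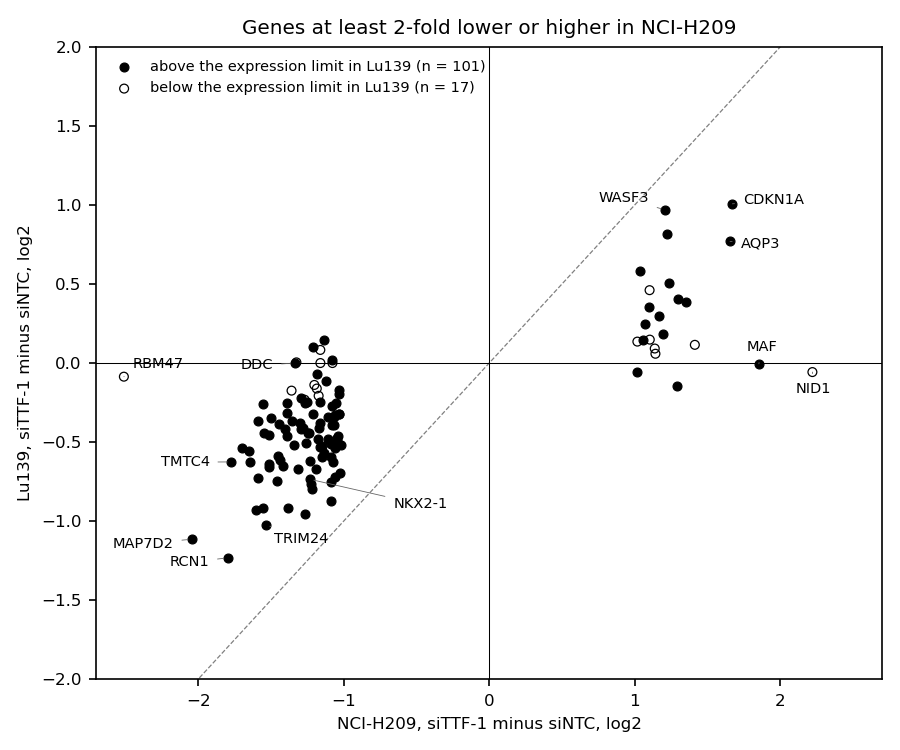
Difference between siTTF-1 and siNTC cells in Lu139 (vertical axis, log2) against that in NCI-H209 (horizontal axis, log2) for the 118 genes at least 2-fold lower or higher in NCI-H209. Filled points exceeded the expression limit in Lu139 and open points did not; the dashed line marks equal differences, and the lower genes lie between it and 0 or slightly above 0. The genes were chosen by their values in NCI-H209, which favours smaller values in Lu139.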

How the data were processed

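Total RNA of electroporated NCI-H209 and Lu139 cells was hybridised to Affymetrix arrays, and the deposited values are linear probe set intensities. The submitters' processing notes name Affymetrix Expression Console. How they summarised and normalized the values is not stated in those notes or the labels, so values were used as deposited. Of 54675 probe sets, 62 controls were left out and 41091 were paired with exactly 1 gene symbol, 41037 of them updated by gene identifier through RefSeq (GRCh38.p14), which was used for names, gene lengths and promoters. The pseudocount of 18.7 is the 25th percentile of all values, and it understates differences of dim genes. The procedure was checked on simulated arrays (Python 3.11.15, numpy 2.4.6, pandas 2.3.3). With 1 array per group no p-value was computed. The genes named were drawn from NKX2-1, the 30 lowest and 20 highest genes (some of which appear in a plot alone), list members past 1.5-fold or highest in control cells, and genes whose probe sets agree or differ most; other genes (families, AP-1 subunits, neighbours, markers, genes with promoter motifs or opposite values) were chosen after their values were seen. The 38 gene lists and the rule were chosen with earlier results of these data known, and 166 of 1944 list entries had no probe set with a single symbol and were not analysed here. The 12 alternative settings comprised 10 planned ones and 2 scalings to spiked-in controls, added after seeing the data. Promoter motifs were also counted over genes above the limit on both arrays.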

Additional observations from a re-analysis of the deposited data

Results flagged for a closer look

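Among genes past 1.5-fold in NCI-H209, 6 had a difference of the opposite sign in Lu139 that was larger than the SD over genes there (0.19). TMEM163, a zinc transporter of vesicles, had a log2 difference of -0.69 in NCI-H209 (63.5 in siNTC and 32.1 in siTTF-1 cells) and of 0.27 in Lu139. HOXB-AS3, the antisense transcript of the HOXB cluster, had -0.63 and 0.36, but in siNTC cells of Lu139 it was at 33.1, below the expression limit of 37.0. ARHGAP20, a GTPase-activating protein, had -0.61 and 0.19, but its other expressed probe set in NCI-H209 gave 0.10. In the other direction, METRNL, a secreted meteorin-like protein, had 0.74 (395 and 671) and -0.23, TMEM35A had 0.70 and -0.34, and PGM2L1, a sugar bisphosphate synthase, had 0.60 and -0.32. Each line had 1 array per siRNA, so the difference was not tested.

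The probe sets without a single gene symbol were not used for gene values. Of these, 5409 exceeded the expression limit in NCI-H209, 31 passed 2-fold downward and 12 passed it upward. The lowest, 226287_at, was at 1932 in siNTC cells and 290.4 in siTTF-1 cells (-2.66), a larger decrease than that of RBM47, and gave -1.17 in Lu139. The highest, 226580_at, was at 242 and 711 (1.48) and gave 0.70 in Lu139. No gene is named for either in the table used here.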

How the results depend on the processing

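NKX2-1 was lower in every setting that read it (-1.38 to -0.90); without _x_at and _s_at probe sets it had none left. No paired analysis was possible because each group has 1 array, and for the same reason no array could be left out. Averaging every probe set of a gene gave 43 genes at least 2-fold lower and 13 higher, and 320 and 83 at 1.5-fold; the cause was not tested. Leaving out probe sets named _x_at or _s_at gave 55 genes lower and 10 higher on all expressed probe sets, with fewer probe sets read. Scaling to the hybridization controls, added after seeing the data, moved the median of all genes to -0.09 and gave 827 genes at least 1.5-fold lower and 88 higher, with 170 and 11 on all expressed probe sets. Scaling to the poly-A controls, also added, moved the median to -0.13 and gave 166 and 14 genes at 2-fold, 954 and 76 at 1.5-fold, and 200 and 8 on all expressed probe sets. The share of genes past 2-fold that were lower was 80.5% as reported and 89.8% and 92.2% with these scalings; the cause was not tested. In the other settings the share at 1.5-fold lay between 68.2% and 79.4%. The differences of SCLT1 (-0.37 with the brightest probe set in NCI-H209), BOK (-0.067), MSI2 (0.40) and PPP2R1B (-0.53, these 3 without _x_at and _s_at probe sets) reversed because another probe set was read. Of the other values of named genes, 1714 moved by no more than the SD over the probe sets and 227 by more. Of the list medians, 409 and 47 did so. Nearly all of the 47 came from the 2 scalings to spiked-in controls, and most from that to the poly-A controls, under which nearly every list median moved. Depth is not defined for arrays; dim genes are limited by background, which the pseudocount only damps.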

Other observations

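Some transcripts of 1 gene behaved unlike its main value in NCI-H209. CREM, a cAMP-responsive transcription factor gene with several promoters, was level on the probe set used (243 in siNTC and 247 in siTTF-1 cells, 0.02) but lower on its 4 other expressed probe sets. Of these, 209967_s_at was at 466 and 160 (-1.44), 230511_at at 122 and 48.4 (-1.07), 214508_x_at at 316 and 142 (-1.06) and 207630_s_at at 261 and 125 (-0.96). TMED4, a cargo receptor of early secretion, was at 1391 and 1584 (0.19) on the probe set used and at 465 and 1268 (1.41) on 1558487_a_at. Which transcripts these probe sets read was not examined.

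Metallothionein genes, which bind zinc and copper, were all below 0 in NCI-H209, 8 of 8 expressed, where 47.3% of all genes were. Their median was -0.24, against 0.01 over all genes, and 0 passed 1.5-fold. MT2A was at 8068 and 6849 (-0.24) and MT1X at 5215 and 4695 (-0.15). In Lu139 the median of the same 8 genes was 0.49, against 0.03 over all genes expressed there. Their probe sets can cross-hybridise, so the 8 values are not independent. Of 50 expressed lipid genes, 5 were at least 1.5-fold lower (10%, against 3.52% of all genes) and 2 higher (4%, against 1.09%). CERS6, a ceramide synthase, was at 2761 and 1341 (-1.03), and the elongases of very long fatty acids ELOVL2 (523 and 259, -0.97) and ELOVL4 (296 and 167, -0.76) were also lower. UGT8, which makes galactosylceramide, was at 1430 and 2952 (1.04) and ACSL1, an acyl-CoA synthetase, at 1342 and 2251 (0.74). Of 50 expressed genes of Rab traffic, 4 were at least 1.5-fold higher, with RAB8B at 167 and 455 (1.35) and RAB20 at 641 and 1091 (0.75), and 2 were lower. RAB8B gave 1.27 and 0.22 on its other expressed probe sets.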
